A study of Mus musculus with 106 samples.

Results

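The genes described here are 8 mouse liver genes that make, coat or break down triglyceride: Gpam, Lpin1, Lpin2, Dgat1, Dgat2, Plin2, Pnpla2 and Pnpla3, out of 21887 protein-coding genes. They were chosen by name, with their peak counts and accessibility coverage in these same lists already known, so those values are given as a description and no test is made on them. For each gene, all peaks were taken whose centre lay in the mm10 gene body or within 10 kb of either end, in each of 23 ChIP-seq peak lists. In 4 ATAC-seq lists, the percent of the gene body inside the listed regions was taken as well.

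ATAC-seq reads open chromatin by transposase insertion, and ChIP-seq finds where a protein sits on DNA. The ATAC-seq lists hold regions called with a ligand over vehicle, that is, accessibility gained with the ligand. They cover the LXR agonists GW3965 and T09 in wild type (WT) livers, and the FXR agonist GW4064 in Foxa2-KO and in WT livers. The ChIP-seq lists hold Foxa2 in WT livers with GW3965, T09 or their common vehicle, and with GW4064 or its own vehicle. FXR was mapped in Foxa2-KO and WT livers with GW4064 or vehicle. LXR was mapped in Foxa2-KO and WT livers with an agonist labelled GW (no number given), T09 or vehicle, and PPAR in Foxa2-KO and WT livers with GW3965, T09, GW4064 or vehicle. Foxa2-KO animals were Foxa2loxP/loxP;Alfp.Cre, a Cre that acts in the liver epithelium, and WT animals were control littermates. Livers for ATAC, Foxa2 and FXR came from mice of 8 to 12 weeks, 4 h after oral gavage per the sample labels (the series text speaks of injection), and those for LXR and PPAR from C57BL/6 mice of 3 months with no time label.

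Each group or ligand-over-vehicle comparison was deposited as 1 list, so no value below has a replicate error. By the labels, a Foxa2 list came from 1 sample (3 of these samples are described as 3 replicates together), an LXR list from 3 samples in Foxa2-KO and 1 in WT livers, and an FXR or PPAR list from 2. An ATAC list came from 2 samples per arm for GW3965 and T09 and from 3 per arm for GW4064. Read depths are not in the lists, which differed widely in length. The Foxa2 lists held 21245 peaks with GW3965, 25318 with T09 and 4348 with their vehicle, and 22666 with GW4064 against 7306 with its vehicle. The ATAC lists held 62838 regions for GW3965, 60868 for T09, and 82561 for GW4064 in Foxa2-KO livers against 60528 in WT livers. All 8 hepatocyte markers examined (Alb, Apob, Ttr, Hnf4a, Apoa1, Trf, Cps1, Ahsg) had a Foxa2 peak with GW3965, with T09 and with GW4064. Of all protein-coding genes, 36.9, 39.2 and 38.8% had a peak in these 3 lists. Of 6 Kupffer cell markers, 0 had a Foxa2 peak with GW3965, 0 with T09 and 1 with GW4064. Endothelial markers had a Foxa2 peak at 4 of 5 genes in each of these 3 lists, cholangiocyte markers at 1, 1 and 0 of 5, stellate cell markers at 0, 1 and 2 of 6, and adipocyte markers at 4, 2 and 3 of 5 (2 of which, Plin1 and Cidec, are also lipid droplet genes). These are whole-liver libraries, in which fewer cells of a type and less signal per cell cannot be told apart, and the part of other cell types in the values below was not tested.

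Triglyceride is built on glycerol 3-phosphate. Gpam, the mitochondrial glycerol-3-phosphate acyltransferase, adds the first fatty acid, the lipins (Lpin1, Lpin2) remove the phosphate from phosphatidate to give diacylglycerol, and Dgat1 and Dgat2 add the last fatty acid. The product is stored in cytosolic droplets coated by proteins of the perilipin family such as Plin2, and is released by the lipase Pnpla2 (adipose triglyceride lipase). Pnpla3 is a droplet protein of the same family, known for its link with fatty liver in humans. LXR is a sterol sensor known to raise lipid synthesis genes in liver, FXR is the bile acid receptor, PPARα switches on fatty acid oxidation, and Foxa2 is a pioneer factor that can bind closed chromatin.

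A few stretches of start-site sequence are shown because the Foxa2 peaks and gained regions described below meet there or beside there. They are RefSeq sequences of GRCm38 (mm10), 250 bases before to 50 after a start site, for 9 start sites of the 6 genes found in that table. Dgat1 and Dgat2 were not analysed for sequence here.
Lpin2 inner start site, chr17:71204404-71204703, plus strand, with the FOXA core motif (TGTTTAC, on the other strand) in capitals: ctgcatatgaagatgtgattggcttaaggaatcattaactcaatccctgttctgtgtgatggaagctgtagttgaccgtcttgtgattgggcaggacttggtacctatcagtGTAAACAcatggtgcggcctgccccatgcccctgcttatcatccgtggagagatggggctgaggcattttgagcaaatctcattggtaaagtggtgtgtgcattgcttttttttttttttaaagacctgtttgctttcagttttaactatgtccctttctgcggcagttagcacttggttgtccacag
Gpam outer start site, chr19:55127189-55127488, minus strand, with the 89 bases inside the Foxa2 peak of T09-treated livers in capitals: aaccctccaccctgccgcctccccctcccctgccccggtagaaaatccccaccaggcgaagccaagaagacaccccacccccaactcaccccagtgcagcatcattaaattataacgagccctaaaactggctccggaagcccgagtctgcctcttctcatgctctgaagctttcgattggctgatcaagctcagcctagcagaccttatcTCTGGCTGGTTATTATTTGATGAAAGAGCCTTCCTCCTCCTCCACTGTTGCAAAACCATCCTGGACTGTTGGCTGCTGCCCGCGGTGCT
Plin2 start site, chr4:86670010-86670309, minus strand, with the nuclear receptor core motif (AGGTCA, on the other strand) in capitals: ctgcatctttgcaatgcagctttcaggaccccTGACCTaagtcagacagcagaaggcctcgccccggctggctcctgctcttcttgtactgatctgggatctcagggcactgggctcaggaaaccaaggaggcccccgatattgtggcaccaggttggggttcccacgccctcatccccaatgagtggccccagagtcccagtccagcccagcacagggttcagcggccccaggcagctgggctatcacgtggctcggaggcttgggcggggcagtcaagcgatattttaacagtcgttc

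The Lpin2 sequence was the only member promoter of the 9 with a FOXA core, read on either strand. Its motif lay at 17:71204516-71204522, at −138 relative to the start site by its first base, and it lay under the Foxa2 peaks of all 3 ligand lists. The core was present in 3.65% of all 32851 promoters of this length, in 13.6% of the 1821 touched by a Foxa2 peak of the GW3965 list, in 18.1% of the 936 touched in the T09 list and in 22.2% of the 796 touched in the GW4064 list. The receptor core motif AGGTCA was present in 3 member promoters, those of Plin2, Lpin1 and the inner Gpam start, and in 16.3% of all promoters. The paired elements built from it, in exact letters, are the direct repeats spaced by 4 bases (DR4, the LXR type) or 1 base (DR1, the PPAR type) and the inverted repeat spaced by 1 base (IR1, the FXR type). They were in no member promoter and in 0.0152%, 0.0396% and 0.00913% of all promoters.

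Foxa2 lay at 6 of the 8 genes with each ligand. With GW3965, peaks were listed at Gpam, Lpin1, Lpin2, Dgat2, Plin2 and Pnpla3, against 36.9% of all genes with a peak in that list. With T09 they were listed at the same 6 genes, against 39.2% of all genes. With the vehicle of both LXR agonists they were listed at 4 (Gpam, Lpin1, Dgat2, Plin2), against 12.1% of all genes. With GW4064 the 6 genes were again those, against 38.8% of all genes, and with its vehicle the 4 were again those, against 17.8%. Dgat1 and Pnpla2, the shortest of the 8 genes at 10.01 kb and 5.556 kb, had no Foxa2 peak in any list. The members had a median length of 36.2 kb, against 17.2 kb for all genes, and a longer gene has more room for a peak centre.

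**Figure D1:**
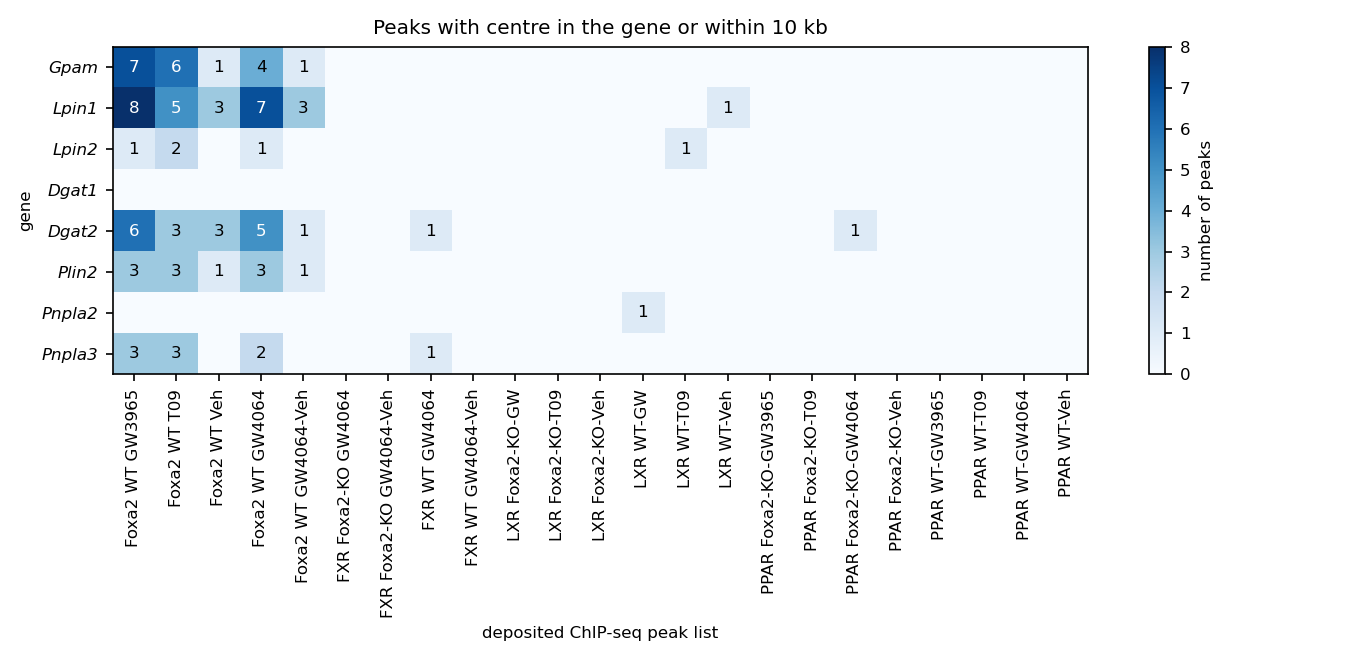
Number of peaks with centre in each gene (rows) or within 10 kb of it, in each of the 23 ChIP-seq lists (columns, 1 deposited list each); blank cells are 0. Foxa2 peaks fill 6 of the 8 rows, with up to 8 peaks at Lpin1, and the FXR, LXR and PPAR columns hold 6 peaks in all. The lists differ widely in length, so counts are not compared between antibodies. A Foxa2 list had a peak at 12.1 to 39.2% of all genes, and an FXR, LXR or PPAR list at 0.274 to 30.5%.

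By number of peaks, Lpin1 had 8 with GW3965, 5 with T09 and 3 with their vehicle, and 7 with GW4064 against 3 with its vehicle. Gpam had 7, 6 and 1 in the first 3 lists, and 4 with GW4064 against 1 with its vehicle. Dgat2 had 6, 3 and 3, and 5 with GW4064 against 1 with its vehicle. Across the 8 genes this came to 28 peaks with GW3965 and 22 with T09, against 8 with their vehicle, and to 22 with GW4064 against 6 with its vehicle. The vehicle lists were shorter throughout, and the counts move with list length. In the first 4348 entries of each list, which is the length of the vehicle list, GW3965 kept 5 of the 8 genes and T09 kept 3, against 4 with vehicle. In the first 7306 entries, GW4064 kept 5 genes, against 4 with vehicle. The GW3965 and T09 lists share their vehicle list, so their counts beside it are not independent.

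The 86 Foxa2 peaks at these genes merged into 37 sites. Of these sites, 14 were in 1 list, 5 in 2, 12 in 3, 4 in 4 and 2 in all 5 lists. By share, 37.8% of the member sites were in a single list, against 68.6% of all 47359 Foxa2 sites, and 32.4% were in 3 lists, against 9.09%. All 5 lists were shared by 5.41% of the member sites and by 6.58% of all sites. Every vehicle peak of the LXR experiment at these genes (8 of 8) overlapped a GW3965 peak, as did 98.8% of vehicle peaks over the genome, and 6 of 8 overlapped a T09 peak, against 97.1% over the genome. Of the 28 GW3965 peaks 8 overlapped a vehicle peak (28.6%, against 20.1% over the genome), and of the 22 T09 peaks 6 did (27.3%, against 16.6%). Of the 22 GW4064 peaks 4 overlapped a peak of its vehicle (18.2%, against 20.8% over the genome), and 4 of the 6 vehicle peaks overlapped a GW4064 peak (66.7%, against 64.6% over the genome).

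Lpin1, the lipin with the most Foxa2 sites (12), held the highest placed site of all 8 genes. It spanned 12:16618439-16619115, 677 bp wide, inside the gene body and 7819 bp upstream of the start site given for Lpin1 in the sequence table. That start site itself lies 42.937 kb inside the annotated gene, so both are intragenic in this annotation. The peak was entry 57 of 21245 with GW3965 and entry 91 of 25318 with T09, against entry 177 of 4348 with their vehicle. It was entry 211 of 22666 with GW4064, against entry 748 of 7306 with its vehicle. Entries stand in the order in which the authors deposited them, since the Foxa2 lists carry no score, and ranks in lists of different length show no change. A second Lpin1 site at 12:16630258-16630757 was in 4 lists, all but the vehicle of GW4064, and 3 other Lpin1 sites were in 3 lists.

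Lpin2, the other lipin, had a Foxa2 peak at its inner start site with each ligand and with neither vehicle. That start lies 21.122 kb downstream of the first. The peak spanned 17:71204321-71204766 with GW3965 (446 bp, entry 3813), 17:71204383-71204611 with T09 (229 bp, entry 5682) and 17:71204396-71204601 with GW4064 (206 bp, entry 5034). With GW3965 it covered the start base itself. The GW3965 entry lay within the first 4348 of its list and the GW4064 entry within the first 7306, whereas the T09 entry lay beyond the first 4348. T09 gave a further peak at 17:71202144-71202442, entry 15111.

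Gpam, the first enzyme of the route, had 9 Foxa2 sites, among them a 564 bp site over its outer start at 19:55127074-55127637. That site was in the GW3965 list (entry 12242) and in the T09 list (entry 15177), and in neither vehicle list nor the GW4064 list. Both entries lay beyond the first 4348, the length of the vehicle list of these ligands. The start base lay under both peaks. The GW3965 peak, 19:55127095-55127637, spanned the whole outer start sequence printed above, and the T09 peak only its capitals. A 181 bp peak at 19:55099344-55099524 over the inner start was in the GW3965 list alone, at entry 18093. The most shared Gpam site, 19:55102880-55103642, was entry 3337 with GW3965 and entry 1194 with T09, against entry 2416 with their vehicle, and was entry 4472 with GW4064, with no peak in the vehicle list of GW4064.

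At Dgat2, the acyltransferase of the last step, 6 Foxa2 sites were listed and 2 of them were in 4 lists. The site at 7:99156334-99156631, in the gene body, was in all 3 ligand lists and in the vehicle list of GW4064 (entry 4364). The site at 7:99191459-99191788, whose peaks were centred 8879 to 8926 bp outside the gene and so just inside the 10 kb limit, was in all 3 ligand lists and in the vehicle list of the LXR agonists (entry 3742). A cluster of 2 sites at 7:99170087-99170385 and 7:99170598-99170910 was in the GW3965 list and in its vehicle list, the first of them also in the GW4064 list and the second also in the T09 list. Distances to the Dgat2 start site were not analysed here.

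Plin2, which coats the droplet, had 4 Foxa2 sites, most of them close to its start. The site at 4:86670870-86671278, 1077 bp upstream of the start, was in all 5 lists. It was entry 4627 with GW3965 and entry 4135 with T09, against entry 2183 with their vehicle, and entry 4774 with GW4064, against entry 2513 with its vehicle. A site at 4:86668448-86668971, 1218 bp downstream of the start, and a site at 4:86671645-86672044, 1790 bp upstream, were in ligand lists only. The downstream one was entry 7043 with GW3965, 13816 with T09 and 13187 with GW4064, and the upstream one entry 6758 with GW3965 and 8396 with T09. All lay beyond the length of the matching vehicle list (4348 or 7306 entries), so ligand and list length cannot be told apart there. Pnpla3 also had 4 sites. Of these, 15:84168490-84168780 (829 bp downstream of the start) and 15:84196270-84196964 (beyond the gene, in the stretch that also holds Samm50) were in all 3 ligand lists and in no vehicle list. The site near the start was entry 12623 with GW3965, 10820 with T09 and 20911 with GW4064, all beyond the length of the matching vehicle list. At the Samm50 site the T09 and GW4064 entries (5336 and 7375) also lay beyond it. The best placed Pnpla3 peak was at the Samm50 site with GW3965, entry 3222, within the first 4348.

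FXR, LXR and PPAR were listed at 2 or fewer of the 8 genes in any list. The shares of all genes in these lists ran from 0.274 to 30.5%, so such counts of 8 do not set these genes apart. Of the 18 FXR, LXR and PPAR lists, 13 held no peak at any of the 8 genes, and the others held 6 peaks. None of the 6 overlapped a Foxa2 peak. The matching share of all receptor peaks is not given here, so nothing is read from that. In Foxa2-KO livers FXR was listed at 0 of 8 genes with GW4064 (6.8% of all genes) and at 0 with vehicle (7.84%). In WT livers FXR was listed at 2 of 8 with GW4064 (30.5% of all genes) and at 0 with vehicle (13.5%). The WT GW4064 list was by far the longest of these, with 22705 entries, against 7883 with vehicle in WT livers and, in Foxa2-KO livers, 3901 with GW4064 and 4284 with vehicle. Cut to the length of the WT vehicle list or of the Foxa2-KO GW4064 list, it held a peak at 0 of 8 genes. The largest q was 0.015 in both Foxa2-KO lists, and the WT lists carry no q, so the calling limits cannot be compared. The FXR peaks were at Dgat2, 7:99168151-99168182 (32 bp, entry 16468 of 22705), and at Pnpla3, 15:84194035-84194042 (8 bp, entry 19091). The Pnpla3 one lay beyond the gene and 147 bp from a Foxa2 peak of the GW3965 list. Peaks of 20 bp or less made up 24.1% of that FXR list.

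LXR, the receptor of GW3965 and T09, was listed at 1 of 8 genes in each WT list. With GW in WT livers the gene was Pnpla2, against 25.5% of all genes. The peak at 7:141469374-141469462 (89 bp, entry 13873 of 14219, q = 0.0495 in the authors' deposited table) lay 8675 bp past the gene and among 4 other genes, and inside regions gained with GW3965 and with T09. With T09 in WT livers the gene was Lpin2, against 14.6% of all genes. That peak, 17:71251025-71251030, was 6 bp wide (entry 7631 of 8095, q = 0.0444), lay just past the gene end and fell inside regions gained with GW3965, T09 and GW4064 in WT livers. With vehicle in WT livers the gene was Lpin1, against 9.38% of all genes, at 12:16653559-16653571 (13 bp, entry 1318 of 4803, q = 0.0296), which also lies in Ntsr2. In Foxa2-KO livers LXR was listed at 0 of 8 genes with GW (16.3% of all genes), 0 with T09 (7.85%) and 0 with vehicle (0.489%, from 161 entries). With background shares of this size, 0 or 1 of 8 genes does not separate the genotypes.

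PPAR was listed at 1 of 8 genes in a single list. In Foxa2-KO livers with GW4064 a 120 bp peak lay beside Dgat2 at 7:99149256-99149375 (entry 916 of 2667, q = 0.0328), against 4.54% of all genes in that list. The other Foxa2-KO lists held 0 of 8 genes with GW3965 (4.56% of all genes), T09 (3.64%) and vehicle (6.73%). The WT lists held 0 of 8 with GW3965 (0.274%), T09 (0.722%), GW4064 (4.23%) and vehicle (4.12%).

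Accessibility gained with a ligand reached these genes unevenly. Regions with their centre in the gene or within 10 kb were listed with GW3965 at 6 of 8 genes (60.8% of all genes), with T09 at 5 (61.4%), and with GW4064 at 6 in Foxa2-KO livers (68%) and at 7 in WT livers (62.1%). Most such regions are short, and the share of the body covered set a few genes apart. At least 25% of the body lay in gained regions at 1 of 8 genes with GW3965 (Dgat2; 2.26% of all genes), at 3 with T09 (Lpin1, Lpin2, Pnpla2; 1.54% of all genes), at 0 with GW4064 in Foxa2-KO livers (1.66%) and at 0 with GW4064 in WT livers (1.94%). Since coverage was known when the genes were chosen, nothing is read from these counts. The median coverage of the 8 genes was 5.68% with GW3965, 0.30% with T09, 0.11% with GW4064 in Foxa2-KO livers and 3.47% with GW4064 in WT livers, and the median of all genes was 0% in each.

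**Figure D2:**
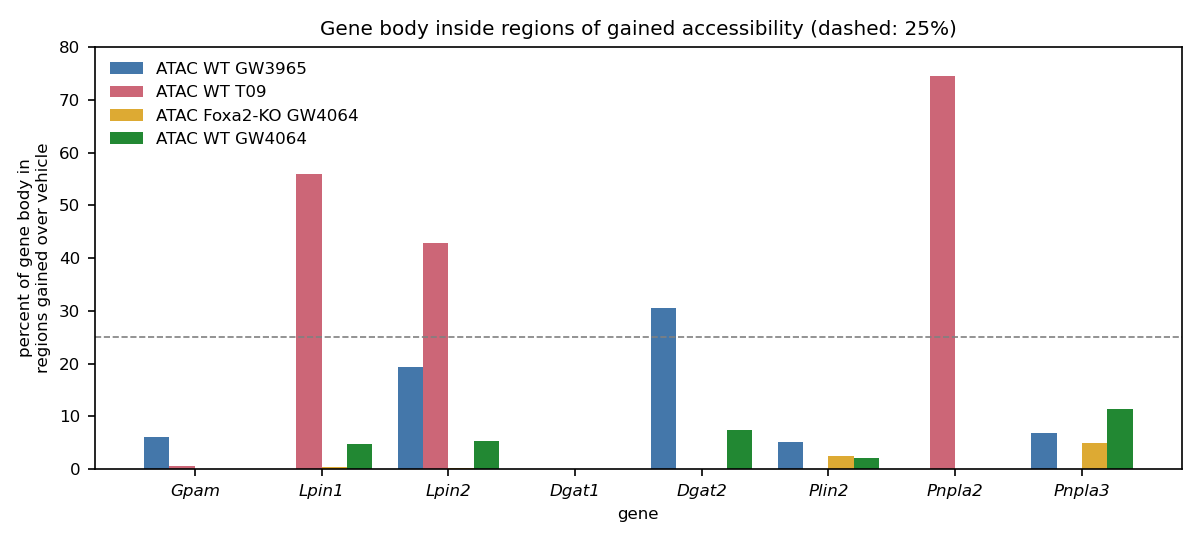
Percent of each gene body (y axis) inside regions gained over vehicle, for the 4 ATAC-seq lists (colours, 1 deposited list each), with the 25% limit dashed. Pnpla2, Lpin1 and Lpin2 stand at 74.4, 55.9 and 42.9% with T09, Dgat2 at 30.5% with GW3965, and no bar for GW4064 passes 11.4%.

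Lpin1 had 55.9% of its body in regions gained with T09, and 0% with GW3965, the other LXR agonist. With GW4064 it had 0.43% in Foxa2-KO livers and 4.78% in WT livers. Coverage as high as that with T09 was found at 123 of the 21887 genes, 0.562%. The first entry of the whole T09 list was an Lpin1 region, 12:16530820-16566840, which is 36.021 kb long, the second widest of 60868, with a fold over vehicle of 2.64 in the authors' deposited table. A second region at 12:16573927-16594331 was 20.405 kb long, the seventh widest, with an authors' deposited fold of 1.38. Counted from the gene's 5′ end, T09 regions covered 24.8, 4.53, 94.1 and 100% of the 4 equal parts of the body. The covered stretch was thus mainly the 3′ part of the gene, with shorter regions near the 5′ end. The start site given for Lpin1 lay in no gained region of any list. Of the 5 Foxa2 peaks at Lpin1 with T09, 4 lay inside T09 regions, and the site shared by all 5 Foxa2 lists was the exception. Of those 4, only 12:16562243-16562454 lay in the 36.021 kb region. The others lay near the 5′ end, in 12:16630131-16632246 and 12:16633003-16636516 (authors' deposited fold 1.39 and 1.15).

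**Figure D3:**
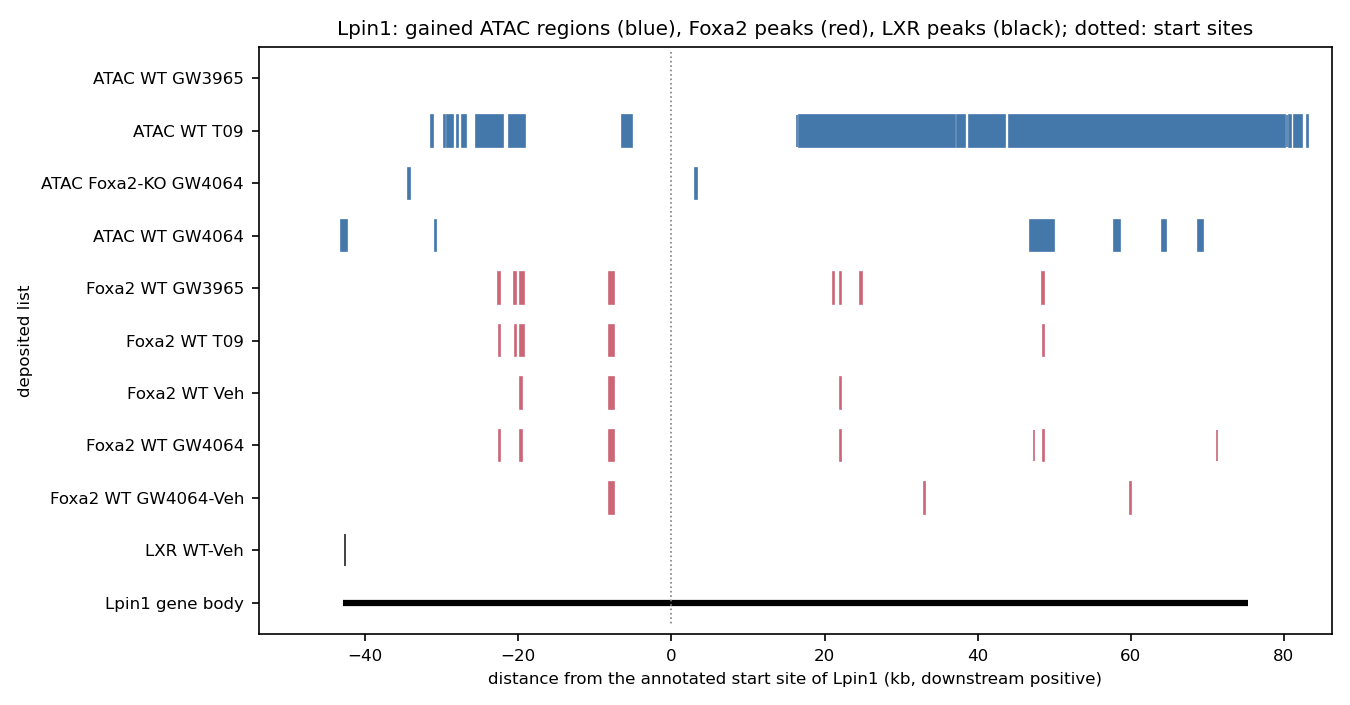
Regions gained over vehicle (blue, 4 ATAC-seq lists), Foxa2 peaks (red, 5 lists) and the LXR peak (black) along Lpin1, by distance in kb from the start site given for the gene (dotted; downstream positive). T09 regions fill the downstream part of the gene body (black bar), the GW3965 row is empty, and the Foxa2 site at −7819 bp stands in all 5 rows.

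Lpin2 had 42.9% of its body in regions gained with T09 and 19.4% with GW3965, which falls below the 25% limit. With GW4064 it had 0.22% in Foxa2-KO livers and 5.25% in WT livers. The coverage with T09 was reached by 175 genes and that with GW3965 by 653 (2.98%). With both agonists the longest region ran over the 3′ end of the gene into the stretch that holds Emilin2. It was 17:71240562-71257667 with T09 (17.106 kb, entry 9, authors' deposited fold 2.11, q = 7.14e-218) and 17:71246880-71255394 with GW3965 (8.515 kb, entry 178, authors' deposited fold 1.35). By equal part from the 5′ end, T09 regions covered 0.91, 6.78, 72.3 and 91.5%, whereas GW3965 regions covered 8.12, 28.0, 12.8 and 28.6%. GW3965 regions held all 3 Lpin2 start sites and T09 regions held none of them. The region over the inner start with GW3965, 17:71204014-71204986, contained the Foxa2 peak of that list and the FOXA core of the sequence printed above.

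**Figure D4:**
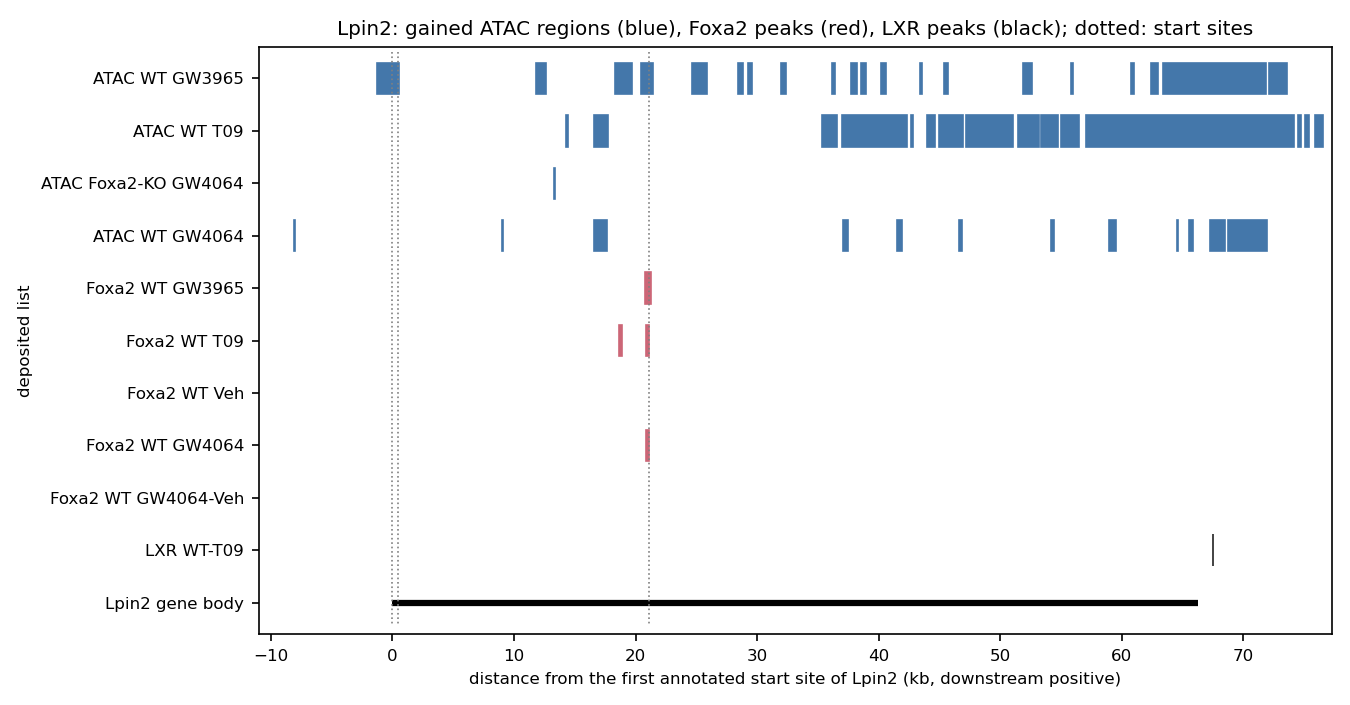
Regions gained over vehicle (blue, 4 ATAC-seq lists), Foxa2 peaks (red, 5 lists) and the LXR peak (black) along Lpin2, by distance in kb from its first start site (start sites dotted; downstream positive). The Foxa2 peak at the inner start is in the 3 ligand rows and in neither vehicle row, and T09 regions fill the downstream end.

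Pnpla2, the lipase, had the highest coverage of the 8 genes, 74.4% with T09, reached by 73 genes (0.334%), and 0% in the other 3 lists. It is a short gene, and a single region of 5.265 kb at 7:141453832-141459096 made up most of the value. That region took in the Pnpla2 start site and was entry 1514, with an authors' deposited fold of 1.19 and q = 4.89e-04. T09 regions covered 100, 100, 81.4 and 16.3% of the 4 equal parts. The T09 list held 5 regions in the gene and its surroundings, a stretch shared with Cd151, Cracr2b, Pidd1 and Rplp2, and GW3965 gave 3, all outside the body. Of the 6 members with a start site in the sequence table, only Pnpla2 had it in a T09 region.

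Dgat2 had 30.5% of its body in regions gained with GW3965, reached by 399 genes (1.82%), and 0% with T09. With GW4064 it had 0% in Foxa2-KO livers and 7.35% in WT livers. The GW3965 value came mainly from a region of 6.5 kb at 7:99169901-99176400 that stood late in the list, at entry 50038 of 62838, with an authors' deposited fold of 1.11 and q = 0.0385. A better placed region of the same list at 7:99160831-99162811 was entry 1917, with an authors' deposited fold of 1.29. Of the 6 Foxa2 peaks at Dgat2 with GW3965, 4 lay inside GW3965 regions. Dgat1, the other acyltransferase of the last step, had 0% coverage in all 4 lists and no ChIP-seq peak in any of the 23. The only region near it was a 111 bp one with GW4064 in Foxa2-KO livers, outside the gene.

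At Gpam, GW3965 regions covered 6.13% of the body and T09 regions 0.60%, and GW4064 regions covered 0% in Foxa2-KO livers and 0.10% in WT livers. GW3965 gave 15 short regions there, among them 19:55126928-55128203 over the outer start, with an authors' deposited fold of 1.36. Of the 7 Foxa2 peaks with GW3965, 3 overlapped these regions. At Plin2, coverage was 5.23% with GW3965 and 0% with T09, and 2.39% with GW4064 in Foxa2-KO livers against 2.16% in WT livers. The GW3965 region 4:86667982-86671369 held the Plin2 start site and the nearest Foxa2 site on either side of it, but not the one 1790 bp upstream, and stood at entry 53451 with an authors' deposited fold of 1.13. At Pnpla3, coverage was 6.90% with GW3965 and 0% with T09, and 4.93% with GW4064 in Foxa2-KO livers against 11.4% in WT livers.

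Pnpla3 was the member most covered with GW4064 in either genotype, in different places. In Foxa2-KO livers the 4 equal parts of the body, from the 5′ end, were covered to 0, 0.07, 6.35 and 13.3%. In WT livers they were covered to 42.3, 3.20, 0 and 0%, through a region at 15:84167506-84170068 that took in the start site and was entry 139 of 60528. GW3965 in WT livers gave a region at nearly the same place, 15:84167584-84169276 (entry 899, authors' deposited fold 1.40), which held a Foxa2 peak of that list. Coverage with GW4064 was lower in Foxa2-KO than in WT livers at 5 of the 8 genes (Gpam, Lpin1, Lpin2, Dgat2, Pnpla3), higher at Plin2 and 0% in both at Dgat1 and Pnpla2. Over all genes it was lower in Foxa2-KO livers at 27.8%, higher at 32.4% and equal at 39.9%, and coverage above 0% was found at 48.0% of genes in Foxa2-KO livers, against 43.8% in WT livers. The gained regions at the 8 genes and within 10 kb numbered 14 in Foxa2-KO livers (of 82561), against 31 in WT livers (of 60528). Lpin2 held 1 and 12 of them. At Dgat1 (1 and 0), Plin2 (3 and 2) and Pnpla3 (6 and 4) the number was higher in Foxa2-KO livers. The matching number over all genes is not given here, and with 1 list per genotype these differences could not be tested. The largest q was 0.05 in the Foxa2-KO list, and the WT list carries no q, so the calling limits cannot be compared.

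**Figure D5:**
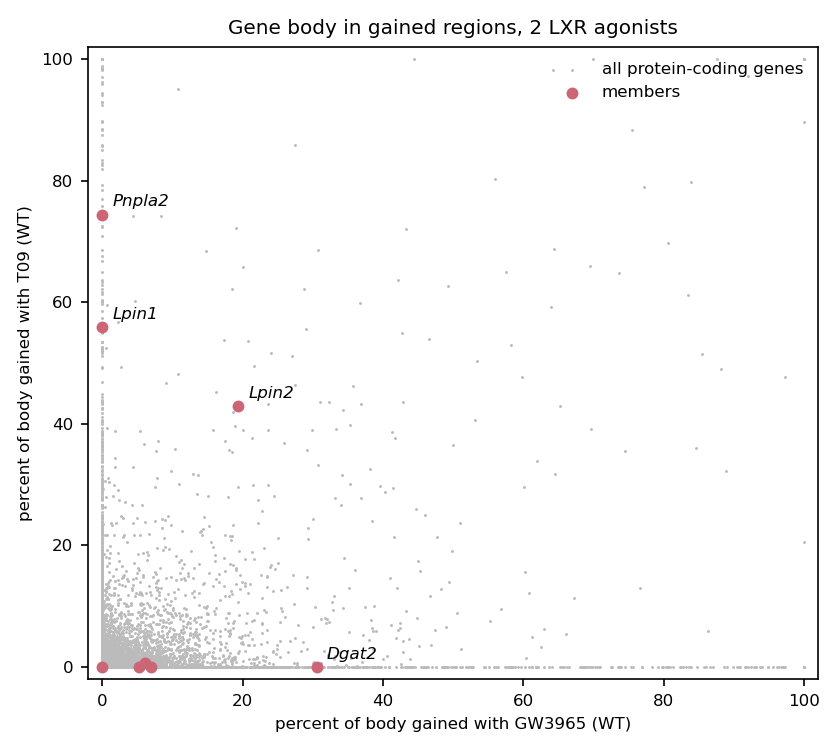
Percent of the gene body gained with GW3965 (x axis) against that gained with T09 (y axis) in WT livers, each over its own vehicle, for 21887 protein-coding genes (grey) and the 8 members (red). Lpin1 and Pnpla2 lie on the T09 axis, Dgat2 on the GW3965 axis, and Lpin2 is the only member with over 10% in both.

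GW3965 coverage was above 0% at Gpam, Lpin2, Dgat2, Plin2 and Pnpla3, and T09 coverage at Gpam, Lpin1, Lpin2 and Pnpla2, so that Gpam and Lpin2 were covered with both LXR agonists. Over all genes, coverage above 0% was found at 43.6% of genes with GW3965 and at 43.2% with T09. Foxa2 peaks overlapped regions gained with the same ligand, by at least 1 base, for 11 of 28 with GW3965 (5313 of all 21245 Foxa2 peaks of that list). The same held for 4 of 22 with T09 (3.89% of all) and 3 of 22 with GW4064 (5.84% of all). All 4 of the T09 cases were at Lpin1.

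Genes with coverage most like that of a member over the 4 ATAC-seq lists were found by the smallest Euclidean distance in percentage points among genes of 10 kb or more. For Lpin1 they were Hrg, Slc7a2 and Ppp1r10, at distances of 5.16, 5.97 and 7.09. For Lpin2 they were Adh1, Fads2 and Aldh1l1, at 3.71, 5.78 and 6.13. For Dgat2 they were Gulo, Rnd3 and Akr1c14, at 3.38, 4.68 and 5.54, and for Pnpla2 they included Onecut1 and Fbxo22, at 4.36 and 7.51. Fads2, a fatty acid desaturase, had 45.3% with T09 and 16.3% with GW3965.

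The rest of the triglyceride pathway was represented by 32 other genes, all of them measured. A Foxa2 peak was listed at 23 of them with GW3965 (36.9% of all genes) and 20 with T09 (39.2%), against 5 with their vehicle (12.1%). With GW4064 it was listed at 19 (38.8%), against 12 with its vehicle (17.8%). The vehicle lists were the shorter ones, as given above. FXR was listed in Foxa2-KO livers at 3 of 32 with GW4064 (6.8% of all genes) and 2 with vehicle (7.84%). In WT livers it was listed at 12 with GW4064 (30.5%) and 8 with vehicle (13.5%). LXR was listed in Foxa2-KO livers at 4 with GW (16.3% of all genes), 2 with T09 (7.85%) and 1 with vehicle (0.489%). In WT livers it was listed at 10 with GW (25.5%), 2 with T09 (14.6%) and 1 with vehicle (9.38%). PPAR was listed at 3 genes in Foxa2-KO livers with GW3965 (4.56% of all genes) and at 1 in WT livers with GW4064 (4.23%). It was listed at 0 in its other 6 lists (0.274 to 6.73% of all genes). Peaks in the most ChIP-seq lists were found at Abhd5 and Agpat3, each in 9 of 23. Abhd5 encodes the coactivator of the Pnpla2 lipase and Agpat3 an acyltransferase of the step between Gpam and the lipins. Next came Lpin3, the third lipin, and the monoacylglycerol acyltransferase Mogat1, each in 7 lists, and Fitm1 and the droplet protein gene Hsd17b13, each in 6. A further 9 genes tied at 5 lists: Agpat2, Ces1d, Ces1g, Cidec, Gpat4, Lipa, Mgll, Mogat2 and Plin5.

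At least 25% of the body was covered with GW3965 at 4 of these 32 genes (2.26% of all genes): G0s2 (100%), Agpat2 (66.5%), Gpat4 (39.5%) and Ces1d (29.0%). With T09 it was covered at 4 (1.54% of all genes): Ces1d (55.6%), Plin4 (37.5%), Bscl2 (30.8%) and Gpat4 (29.7%). With GW4064 it was covered at 0 in Foxa2-KO livers (1.66% of all genes). In WT livers it was covered at 3 (1.94% of all genes), namely G0s2 (100%), Pnpla5 (28.8%) and Plin5 (25.9%). G0s2 encodes the inhibitor of the Pnpla2 lipase, and its short body lay wholly in regions gained with GW3965 and with GW4064 in WT livers and in none gained with T09. The Pnpla2 body had 74.4% for T09 and 0% for GW3965, the T09 value mainly from a single region with an authors' deposited fold of 1.19. Over the gene plus 10 kb, Pnpla2 had 47.2% with T09 and 20.007% with GW3965, so the 0% holds for the body only. Any relation between G0s2 and Pnpla2 was not tested. The median coverage of the 32 genes was 1.36% with GW3965, 0.30% with T09, 0.35% with GW4064 in Foxa2-KO livers and 1.89% with GW4064 in WT livers. Among markers of other cell types, 1 gene passed 25% in any list, the adipocyte marker Cfd with GW4064 in Foxa2-KO livers, whereas of the 8 hepatocyte markers 5 did with GW3965, 1 with T09, and with GW4064 1 in Foxa2-KO livers and 4 in WT livers.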

How the data were processed

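The authors deposited peak lists, made from reads aligned with BWA to mm10 per the submitters' processing notes (versions not given in the sources used here) and called with PeakSeq, per the series text: ChIP-seq against input, and ATAC-seq ligand against vehicle. A q-value per peak was deposited in 19 lists. The other 8 have none, namely all Foxa2 lists, FXR in WT livers and ATAC of GW4064 in WT livers. The fold, or ratio over control, and the −log10 of p in some lists are the authors' own, as deposited; the −log10 was not used. Coordinates are those deposited, counted from 1.

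Peaks were assigned by their centre to 21887 protein-coding genes of RefSeq (GRCm38.p6) plus 10 kb. Coverage is the percent of gene body bases inside merged regions, with a limit of 25%. Foxa2 sites are peaks of the 5 lists merged where they overlap by at least 1 base. Motifs were exact matches on both strands. The counting steps were tested on simulated lists. With 1 list per group no test was possible, and counts stand beside the share of all genes called by the same rule. Entry means place in the deposited order.

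The 8 genes, the 32 pathway genes and the markers were chosen with earlier results of these data known. Named genes were the 8 members, pathway genes covered by at least 25% in any ATAC-seq list, the 10 pathway genes with peaks in the most ChIP-seq lists (ties by symbol; the 5 others tied with the last of them are named too), and for each member covered by at least 25% the 3 genes of 10 kb or more nearest in coverage (1 of which is not reported here). The 37 RNA-seq samples and 8 ATAC samples were not used here. Alternatives were windows of 5 and 50 kb, any overlap in place of the centre, coverage limits of 10 and 50%, the first 500 entries, equal list lengths, the gene plus 10 kb as the covered body, and removal of 102 regions found in lists of all 4 antibodies. The work used python 3.11.15, numpy 2.4.6, pandas 2.3.3 and matplotlib 3.10.9.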

Additional observations from a re-analysis of the deposited data

How the results depend on the processing

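With the first 500 entries of each list, the count of genes with a Foxa2 peak was 1 of 8 (Lpin1) with GW3965, T09, their vehicle and GW4064 and 0 with the vehicle of GW4064, the counts for FXR in WT livers with GW4064, for LXR in WT livers with GW, T09 and vehicle and for PPAR in Foxa2-KO livers with GW4064 were 0, and the count covered by at least 25% with GW3965 was 0. With lists shortened to that of their comparison, Foxa2 with T09 kept 3 genes, against 4 with its vehicle, so that the order of the T09 and vehicle counts turned, and FXR in WT livers with GW4064 and LXR in WT livers with GW, T09 and vehicle kept 0. Within 50 kb the counts were 4 for FXR in WT livers with GW4064, 1 for FXR in WT livers with vehicle, 2 for LXR in Foxa2-KO livers with GW and 4 for LXR in WT livers with GW, and within 5 kb LXR in WT livers with GW had 0. At a coverage limit of 10% the count was 2 with GW3965 and 1 with GW4064 in WT livers, and at 50% it was 0 with GW3965. The cause of these moves was not tested beyond the list length and window that each setting changes. Any overlap in place of the centre, and removal of the shared regions, left the count in all 23 ChIP-seq lists within 1.5 times. Over the gene plus 10 kb, coverage moved for 12 of 32 values. Among them, Dgat2 stood at 19.4% with GW3965, and Pnpla2 at 47.2% with T09 and 20.007% with GW3965. In the first 500 entries coverage moved for 16 of 32, and Dgat2 with GW3965 and Pnpla2 with T09 were at 0%. No paired analysis was possible because each group was deposited as 1 list and no result comes from a test, and no replicate could be left out for the same reason. Depth is unknown, so a gene without a peak is not listed there, which does not show that it is unbound.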
